A study of Homo sapiens with 3 samples.

Results

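TFF1, TFF2 and TFF3 make up the human trefoil factor family, and these 3 of the 33538 counted genes were followed here, taken by their symbols, through single cells of Caco-2/HT29 co-cultures. The study grew Caco-2 and HT29, 2 colorectal carcinoma cell lines, together on Transwells, with Caco-2 seeded in excess, and sequenced RNA of single cells with the 10x Genomics 3′ assay. Of the 3 Transwells, 2 were untreated controls and 1 received lipopolysaccharide (LPS) of Escherichia coli O111:B4 in its apical chamber at 1 ng/ml, from day 22 for 24 h. All were grown in DMEM with Glutamax and FBS and harvested on day 23, and each is 1 library, so nothing repeats the LPS condition. Caco-2 forms an absorptive layer when kept at confluence, and HT29 can form mucus-secreting cells. Both are cancer lines, and each cell's line was read from its RNA, since no label gives it.

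Trefoil factors are small secreted peptides folded around the trefoil domain, a loop held by disulfide bonds, and they are released together with mucins onto the surface of the gut, where they are known for helping a wounded epithelium to close. TFF1 and TFF2 are best known as products of the stomach, TFF1 of surface mucous cells and TFF2, which carries a pair of trefoil domains, of mucous neck cells. TFF3 is the trefoil peptide of intestinal goblet cells. The genes lie side by side on the minus strand of chromosome 21 (GRCh38), TFF3 at chr21:42311667-42315409 with 3 exons, TFF2 at chr21:42346357-42350997 with 4 exons and TFF1 at chr21:42362282-42366535 with 3 exons, so that the cluster spans 54869 bases between ABCG1 and TMPRSS3.

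After filtering, 14472 cells were kept, 4633 of control 1, 4989 of control 2 and 4850 of the LPS library, with medians of 5459, 4103 and 3573.5 unique molecular identifiers (UMIs, 1 per captured RNA molecule) per cell. The libraries shared 9 to 11 barcodes a pair, and none held the same counts. Cells were clustered without the trefoil genes into 21 clusters, of which 13 (11881 cells) were placed in the Caco-2 line and 8 (2591 cells) in the HT29 line by the study's gene lists for the lines. The HT29 line made up 14.7%, 20.4% and 18.4% of the cells of control 1, control 2 and the LPS library. Of 6 markers of blood, stromal and endothelial cells, none passed 11.4 CPM in either line. CPM, the unit of the levels below, are the UMIs of a gene scaled to a total of 1000000 UMIs over the cells of a group. UMIs are counted at the 3′ end, so they were not divided by gene length.

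All 3 trefoil genes were found in every library, TFF3 at the highest level and TFF2 at the lowest. Over all kept cells TFF3 stood at 1178 CPM in control 1, 935 CPM in control 2 and 791 CPM in the LPS library. TFF1 stood at 408, 295 and 302 CPM, and TFF2 at 294, 135 and 119 CPM. Control 1, which is also the deepest library, was the highest for each gene, and its TFF2 level stood further from that of control 2 than control 2 did from the LPS library. Caco-2-line cells held 93.2% to 94.7% of a library's TFF1 UMIs and 95.3% to 96.5% of its TFF2 UMIs, but 74.9% to 82.4% of its TFF3 UMIs. The goblet-like cells, 0.863% to 1.08% of the cells, held 10.8% to 13.0% of the TFF3 UMIs.

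The lines were compared first. HT29-line cells carried less TFF1 and TFF2 than Caco-2-line cells in every library, and more TFF3 as a whole. Caco-2-line TFF1 stood at 453, 334 and 348 CPM in control 1, control 2 and the LPS library, and HT29-line TFF1 at 149, 113 and 94.5 CPM. Caco-2-line TFF2 stood at 332, 156 and 139 CPM, and HT29-line TFF2 at 70.2, 35.7 and 29.5 CPM. For both genes the lowest Caco-2-line value lay above the highest HT29-line value. Caco-2-line TFF3 stood at 1137, 862 and 725 CPM and HT29-line TFF3 at 1419, 1276 and 1089 CPM, so that HT29-line cells were higher within each library while the ranges overlapped between libraries.

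In edgeR's quasi-likelihood test with the library as a block, all 3 genes passed an adjusted p of 0.05, in a comparison in which 72.4% of the 14500 genes tested were called, so that a call alone says little here. TFF1 was lower in HT29-line cells, with a log2 fold change of -1.74 (SE 0.09, edgeR adjusted p = 2.82e-16), which is 3.34-fold, and so was TFF2, with -2.26 (SE 0.10, edgeR adjusted p = 3.91e-18), which is 4.80-fold. TFF3 was higher by 0.43 (SE 0.08, edgeR adjusted p = 1.40e-05), which is 1.35-fold. The TFF3 difference rested on the goblet-like cells. Without them HT29-line TFF3 stood at 576, 665 and 551 CPM, below Caco-2-line cells in every library, and the log2 difference turned to -0.65 (SE 0.10, edgeR adjusted p = 3.31e-06), an alternative chosen after the data had been seen. The 3 pairs of sums come from 3 wells, 1 of them with LPS. With the library as a block, these p-values measure how the line difference varied over these libraries, not the spread between libraries. The fit has 2 residual degrees of freedom and adds a spread that edgeR shares between genes, so the small p-values do not come from 3 wells alone.

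Enterocyte markers were read in HT29-line cells for comparison, since released RNA, mixed droplets or misplaced cells can put UMIs of 1 line in cells of the other, and which of these did so was not tested. The 8 enterocyte markers, such as APOA4 and FABP2, stood in HT29-line cells at 4.52% to 19.7% of their Caco-2-line level. TFF1 stood there at 27.2% to 33.8% of its Caco-2-line level and TFF2 at 21.2% to 22.9%, above every enterocyte marker in the same direction. In CST6-led HT29 cells TFF1 stood at 4.86%, 11.3% and 4.02% of the Caco-2-line level in control 1, control 2 and the LPS library, TFF2 at 14.8%, 21.2% and 8.96%, and the summed enterocyte markers at 5.56%, 1.98% and 2.91%. In AQP1-led cells TFF1 stood at 9.38%, 5.596% and 2.26%, against 13.9%, 1.28% and 10.9% for the markers, so TFF1 lay above them in 1 library of 3. TFF2 stood there at 12.8%, 8.98% and 5.67%, also above the markers in control 2 only. These AQP1-led values rest on 2 to 10 UMIs of a gene in a library. In KLK10-led cells TFF1 stood at 23.8%, 9.29% and 22.5% and TFF2 at 17.4%, 9.18% and 35.9%. The markers stood there at 13.1%, 9.99% and 19.0%, so both genes lay below them in control 2 only. In LCN15-led cells TFF1 stood at 43.8% to 51.4% and TFF2 at 12.5% to 24.2%, against 4.37% to 5.15% for the markers. In the other direction the 9 HT29 markers stood in Caco-2-line cells at 0.425% to 3.05% of their HT29-line level, and TFF3 at 66.6% to 80.1%.

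**Figure D1:**
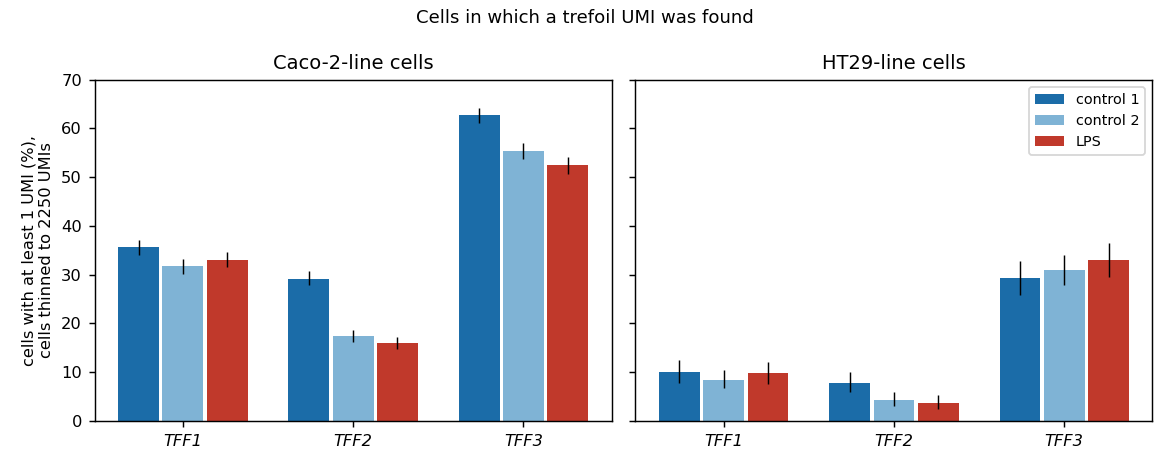
Share of Caco-2-line and HT29-line cells with at least 1 UMI of each trefoil gene, in percent, for control 1, control 2 and the LPS library, after each cell was thinned to a common number of UMIs, the minimum of control 1; bars start at 0 and error bars are exact binomial 95% intervals. TFF2 was found in 29.2% of Caco-2-line cells of control 1 and in 17.4% and 15.9% of those of control 2 and the LPS library.

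The share of cells with a trefoil UMI was compared after thinning each cell to the minimum of UMIs set for control 1, which left out 1209 shallower cells, none of them in control 1. In Caco-2-line cells TFF1 was found in 35.6% of control 1, 31.7% of control 2 and 33.1% of LPS cells, TFF2 in 29.2%, 17.4% and 15.9%, and TFF3 in 62.7%, 55.3% and 52.4%. In HT29-line cells TFF1 was found in 9.96%, 8.45% and 9.76%, TFF2 in 7.76%, 4.34% and 3.68%, and TFF3 in 29.3%, 30.9% and 33.0%. The exact binomial 95% intervals for TFF2 in Caco-2-line cells were 27.8% to 30.7% in control 1 and 16.1% to 18.6% in control 2, so the controls lay apart by more than counting error, which is all that these intervals cover. Without thinning the shares in Caco-2-line cells ran from 39.4% to 51.3% for TFF1, from 21.5% to 44.2% for TFF2 and from 61.8% to 76.3% for TFF3. In HT29-line cells they ran from 11.9% to 15.96%, from 6.05% to 14.3% and from 37.4% to 40.5%. For TFF3 the shares go against the CPM of the lines, and no order of the lines is read from them. For comparison, CST6-led HT29 cells, at medians of 2690 to 4607.5 UMIs, held a TFF1 UMI in 2 of 180, 8 of 200 and 5 of 125 thinned cells and a TFF3 UMI in 7.20% to 11.5%.

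Much of the TFF3 of the HT29 line came from few cells. Cells with 50 or more TFF3 UMIs numbered 34, 30 and 19 in the HT29 line of control 1, control 2 and the LPS library, and held 71.3%, 54.3% and 39.4% of its TFF3 UMIs. In the Caco-2 line 43, 18 and 9 such cells held 12.04%, 7.26% and 5.91%. The richest cell held 369 TFF3 UMIs, 4.09% of its 9019 UMIs, and was a MUC2-led goblet-like cell of control 1. In the other libraries the richest HT29-line cell was LCN15-led, with 271 of 5450 UMIs (4.97%) in control 2 and 161 of 4720 (3.41%) with LPS. TFF2 had an extreme cell of its own in the Caco-2 line, with 285 of 15384 UMIs, in the S100A9-led cluster of control 1. A fixed number of UMIs is reached more easily in deeper cells, so these counts follow depth as well.

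**Figure D2:**
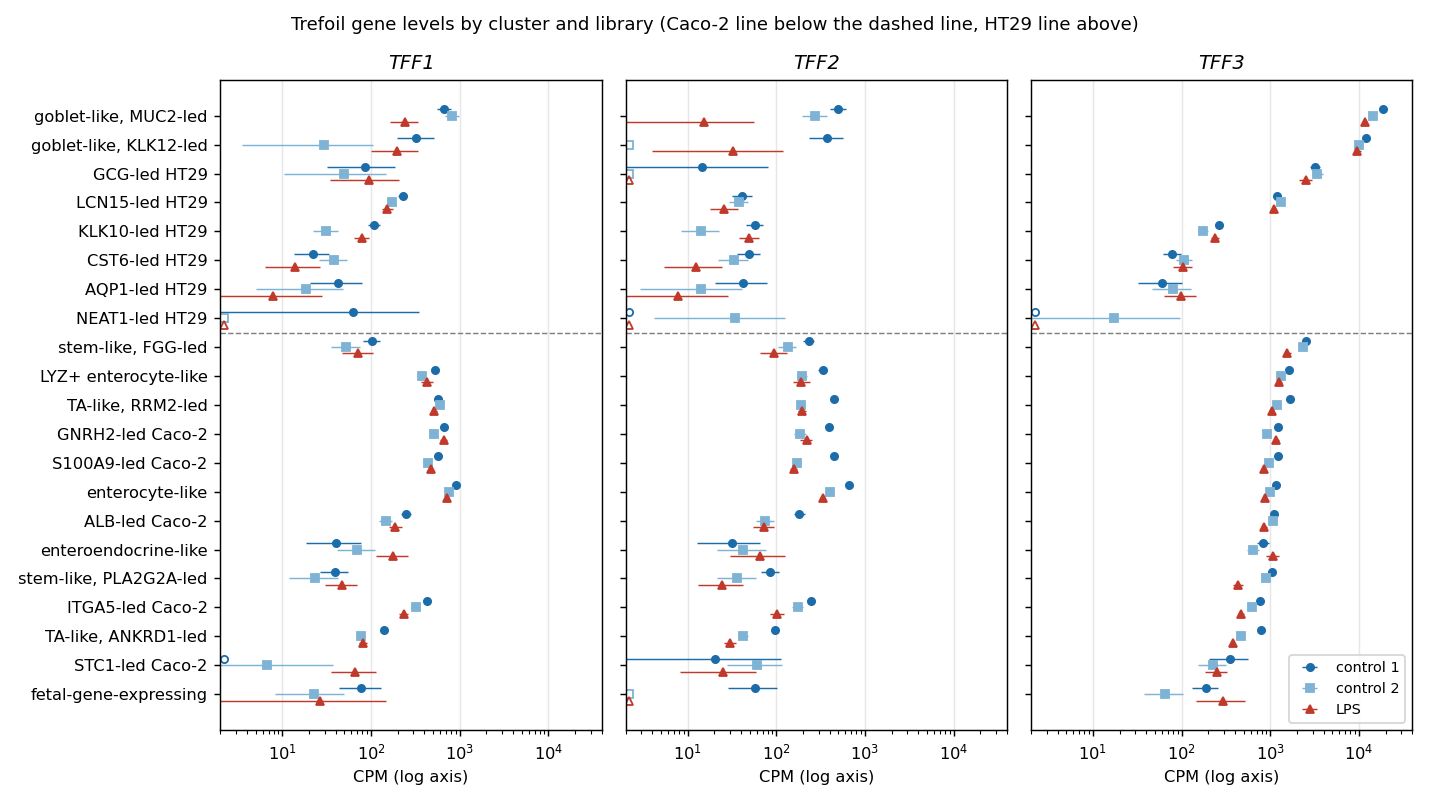
Level of TFF1, TFF2 and TFF3 in CPM on a log axis in the 21 clusters, with 1 point per library, exact Poisson 95% intervals as lines and open points at the left edge for values of 0. TFF3 was highest in the 2 goblet-like clusters, between 9591 and 18389 CPM in every library, and by the mean of the 3 libraries TFF1 was highest in enterocyte-like cells.

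Within the Caco-2 line TFF1 and TFF2 were highest in the enterocyte-like cluster, the absorptive cells marked by APOA4 and FABP2. TFF1 stood there at 916, 760 and 726 CPM in control 1, control 2 and the LPS library and TFF2 at 652, 404 and 334 CPM. The enterocyte-like cells, 12.03% to 16.7% of the cells, held 30.5% to 35.2% of all TFF1 UMIs and 34.8% to 35.7% of all TFF2 UMIs. For TFF1 the next clusters were the GNRH2-led Caco-2 cluster (508 to 664 CPM over the 3 libraries), the MUC2-led goblet-like cluster (239 to 822 CPM), the dividing RRM2-led TA-like cluster (520 to 596 CPM) and the S100A9-led Caco-2 cluster (440 to 570 CPM). TA stands for transit amplifying, the dividing daughters of stem cells. After them came the LYZ+ enterocyte-like cluster (380 to 526 CPM), the ITGA5-led (233 to 425 CPM) and the ALB-led Caco-2 cluster (146 to 250 CPM). The leading genes of the LYZ+ cluster, 333 cells at a median of 12956 UMIs in control 1, include SPRR1B, RARRES2 and LY6D, which also lead the CST6-led HT29 cluster, and whether it holds mixed droplets was not tested.

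Lower TFF1 levels were found in the LCN15-led HT29 cluster (152 to 227 CPM), the KLK12-led goblet-like cluster (29.3 to 325 CPM), the ANKRD1-led TA-like cluster (76.2 to 139 CPM), enteroendocrine-like cells (40.4 to 175 CPM), GCG-led HT29 cells (50.03 to 95.1 CPM), FGG-led stem-like cells (52.6 to 102 CPM) and KLK10-led HT29 cells (31.0 to 108 CPM). The lowest were fetal-gene-expressing (22.7 to 78.1 CPM), PLA2G2A-led stem-like (23.6 to 47.1 CPM), CST6-led (14.0 to 37.8 CPM), STC1-led (0 to 65.7 CPM), AQP1-led (7.86 to 42.5 CPM) and NEAT1-led cells (0 to 62.0 CPM). The ranges of neighbours in this order overlapped in 19 of 20 pairs, and among these pairs only the step from the enterocyte-like to the GNRH2-led cluster exceeded the spread between libraries. The MUC2-led goblet-like cluster did overlap the enterocyte-like one and was higher in control 2, at 822 against 760 CPM. For TFF2 all 20 neighbouring pairs overlapped, and for TFF3 17 of 20 did.

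For TFF2 the enterocyte-like cells were followed by the RRM2-led TA-like (191 to 451 CPM) and GNRH2-led clusters (184 to 390 CPM). The MUC2-led goblet-like cluster came next (15.4 to 499 CPM), with an LPS value that rests on 2 UMIs. After it stood the S100A9-led (158 to 443 CPM), LYZ+ enterocyte-like (192 to 333 CPM) and ITGA5-led clusters (102 to 247 CPM). TFF2 parted from TFF1 in the FGG-led stem-like cells, where TFF2 stood at 231, 134 and 95.0 CPM against 102, 52.6 and 72.0 CPM for TFF1, while in the Caco-2 line as a whole there were 0.398 to 0.733 TFF2 UMIs per TFF1 UMI. This was not particular to them. In PLA2G2A-led stem-like cells TFF2 stood at 85.4, 36.4 and 24.5 CPM against 39.0, 23.6 and 47.1 CPM for TFF1, so it was higher in both controls but not with LPS. CST6-led HT29 cells held more TFF2 than TFF1 in control 1, at 49.2 against 22.0 CPM. GCG-led HT29 cells had 1 TFF2 UMI in control 1 and 0 in the other two, which allows up to 50.03 CPM in control 2 and 47.5 CPM in the LPS library by the limit of 3 counts, so their place among the low clusters was not resolved. The remaining clusters ran from 0 to 182 CPM, apart from the KLK12-led goblet-like one (0 to 376 CPM). Levels below about 50 CPM in clusters of under 100 cells rest on few UMIs.

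TFF3 had another order. It was highest in the MUC2-led goblet-like cluster, at 18389, 14256 and 11712 CPM, followed by the KLK12-led goblet-like cluster at 11954, 10047 and 9591 CPM. In control 1 a single KLK12-led cell held 341 of that cluster's 699 TFF3 UMIs, and 11 of its 13 cells held any. GCG-led HT29 cells, whose leading genes include the hormone genes SST and GCG, came next at 3215, 3386 and 2504 CPM, so that no library overlapped with either goblet-like cluster. The study counts cells with GCG, SST and ETV1, another leading gene of this cluster, among its early enteroendocrine-like cells. The name enteroendocrine-like is used here only for the Caco-2-line cluster led by CLPS and INSM1, so its levels do not stand for all such cells. In the Caco-2 line TFF3 was highest in the FGG-led stem-like cells, which carry LGR5 and SMOC2, at 2535, 2325 and 1558 CPM, and there it was found in 86.3% to 98.4% of thinned cells. Below them lay the LYZ+ enterocyte-like (1247 to 1639 CPM), RRM2-led TA-like (1051 to 1684 CPM), LCN15-led HT29 (1101 to 1318 CPM), GNRH2-led (909 to 1221 CPM), S100A9-led (857 to 1206 CPM), enterocyte-like (863 to 1156 CPM) and ALB-led clusters (848 to 1107 CPM). Lower still were the enteroendocrine-like cells of the Caco-2 line (632 to 1060 CPM), PLA2G2A-led stem-like (435 to 1048 CPM), ITGA5-led (464 to 768 CPM) and ANKRD1-led TA-like cells (376 to 775 CPM).

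The HT29 line was split for TFF3. The LCN15-led cluster stood at 1189, 1318 and 1101 CPM, whereas the KLK10-led (174 to 265 CPM), CST6-led (78.6 to 107 CPM), AQP1-led (59.5 to 98.2 CPM) and NEAT1-led (0 to 17.2 CPM) clusters lay below every Caco-2-line cluster other than the STC1-led (223 to 346 CPM) and fetal-gene-expressing ones (64.3 to 292 CPM). Single cells held 268 of 1696 LCN15-led TFF3 UMIs in control 1, 271 of 2196 in control 2 and 161 of 1396 in the LPS library. TFF1 was also higher in LCN15-led than in CST6-led cells, at 227, 172 and 152 CPM against 22.0, 37.8 and 14.0 CPM, and the libraries did not overlap. TFF2 did not part these clusters, at 26.03 to 41.4 CPM in LCN15-led and 12.4 to 49.2 CPM in CST6-led cells. These clusters were made from the same cells, so no test was run between them.

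The goblet-like cells were compared with the other HT29-line cells. They are 90 cells led by FCGBP, which encodes a mucus protein, and MUC2, the gel-forming mucin of the intestine, and 53 cells led by KLK12 and HES6 with FCGBP. HES6 is among the leading genes of both clusters, and the study reports it as high in its secretory progenitor-like cells. In the alternative clusterings the class was 1 cluster of 93 to 187 cells. All 3 trefoil genes were higher in goblet-like cells in both controls, TFF3 by far the most. Goblet-like TFF3 stood at 16744, 12924 and 11031 CPM and TFF3 in the other HT29-line cells at 576, 665 and 551 CPM, with no overlap. TFF3 was found in 38 of 40, 54 of 54 and 49 of 49 goblet-like cells. TFF1 stood at 581, 571 and 225 CPM in goblet-like cells and at 125, 88.7 and 87.5 CPM in the others. TFF2 stood at 468, 186 and 20.9 CPM against 48.3, 27.8 and 30.0 CPM, and the LPS value rests on 4 UMIs, with an exact Poisson 95% interval of 5.71 to 53.6 CPM that covers the other cells.

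All 3 genes were called higher in goblet-like cells by edgeR, where 10.3% of the 10369 genes tested were called. The log2 fold change was 4.48 (SE 0.12, edgeR adjusted p = 2.29e-28) for TFF3, which is 22.3-fold, 2.17 (SE 0.16, edgeR adjusted p = 3.50e-14) for TFF1 and 2.58 (SE 0.27, edgeR adjusted p = 7.49e-10) for TFF2. The class was made from the same cells with the trefoil genes left out, but genes that move with them were not, so these p-values are too small. TFF1 and TFF2 rested on few cells. A single cell of control 1 held 76 of the 107 goblet-like TFF2 UMIs, and single cells held 39 of 133 and 43 of 123 TFF1 UMIs in control 1 and control 2. After the data had been seen, the goblet-like cell richest in each trefoil gene was left out in each library, 8 cells in all. The log2 fold change was then 1.25 (edgeR adjusted p = 0.00127) for TFF2, 1.34 (edgeR adjusted p = 5.87e-09) for TFF1 and 4.30 (edgeR adjusted p = 1.24e-33) for TFF3. Cells were left out of the goblet-like side alone, so a smaller fold change was set in advance. TFF2 was not called with DESeq2 (log2 fold change 2.03, adjusted p = 0.316) or without control 1 (1.85, edgeR adjusted p = 0.0557).

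HT29-line cells were also sorted by their own MUC2 UMIs. Thinned HT29-line cells with no MUC2 UMI, 2213 in number, held TFF3 at 850 to 1011 CPM over the 3 libraries, and the 36 cells with 1 or 2 MUC2 UMIs held it at 11511 to 15932 CPM. TFF1 stood at 83.4 to 115 CPM without MUC2 and at 342 to 718 CPM with 1 or 2 MUC2 UMIs. TFF2 stood at 24.4 to 45.0 CPM and at 0 to 171 CPM, ranges that overlap. The group with 1 or 2 MUC2 UMIs held as few as 10 cells in a library. Another 16 cells, as few as 3 in a library, held 3 to 10 MUC2 UMIs, with TFF1 at 0 to 1156 CPM, TFF2 at 0 to 1333 CPM and TFF3 at 13037 to 31833 CPM, and 1 cell held more, with no TFF1 or TFF2 UMI.

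**Figure D3:**
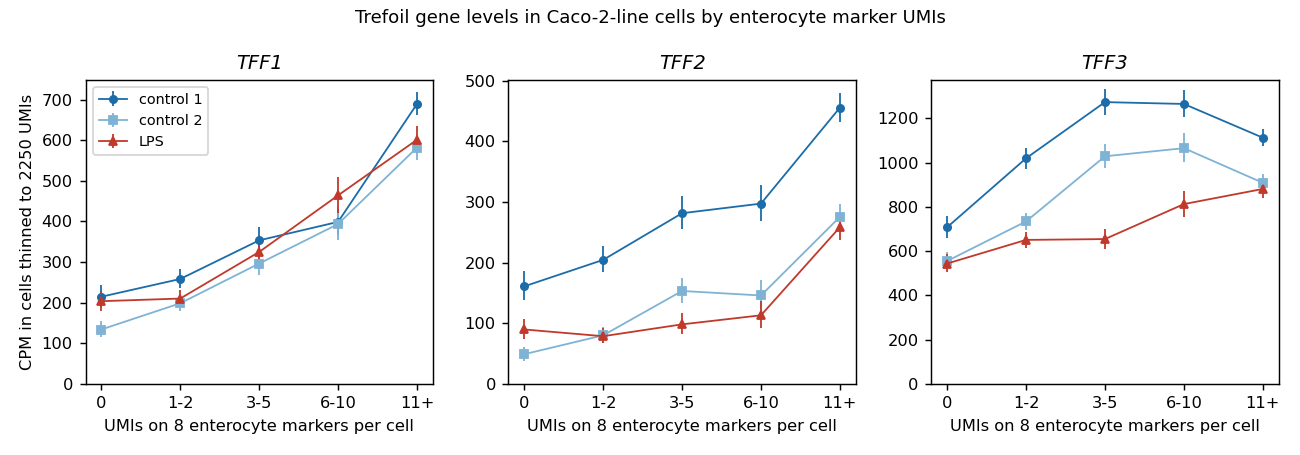
Level of TFF1, TFF2 and TFF3 in CPM (y axis from 0) in thinned Caco-2-line cells, by the number of UMIs on 8 enterocyte markers (x axis), for each library; lines on the points are exact Poisson 95% intervals. TFF1 was higher at each step in every library, while TFF3 in both controls was highest in the middle bins.

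Among Caco-2-line cells TFF1 and TFF2 went with enterocyte markers, and TFF3 much less so. The enterocyte-like cluster stood above the ANKRD1-led TA-like cluster by 6.59-fold, 9.97-fold and 8.90-fold in control 1, control 2 and the LPS library for TFF1. For TFF2 the ratios were 6.72, 9.56 and 11.1, and for TFF3 1.49, 2.15 and 2.298. When thinned cells were sorted by their UMIs on the 8 enterocyte markers, TFF1 went from 134 to 214 CPM in cells with none to 582 to 689 CPM in cells with 11 or more, ranges over the 3 libraries. TFF2 went from 48.8 to 161 CPM to 259 to 456 CPM, and TFF3 from 544 to 708 CPM to 881 to 1113 CPM. Each bin held at least 409 cells in every library. The dividing RRM2-led TA-like cells were not low in trefoil UMIs. They exceeded the ANKRD1-led TA-like cells by 4.11- to 7.82-fold for TFF1, 4.51- to 6.50-fold for TFF2 and 2.17- to 2.80-fold for TFF3.

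**Figure D4:**
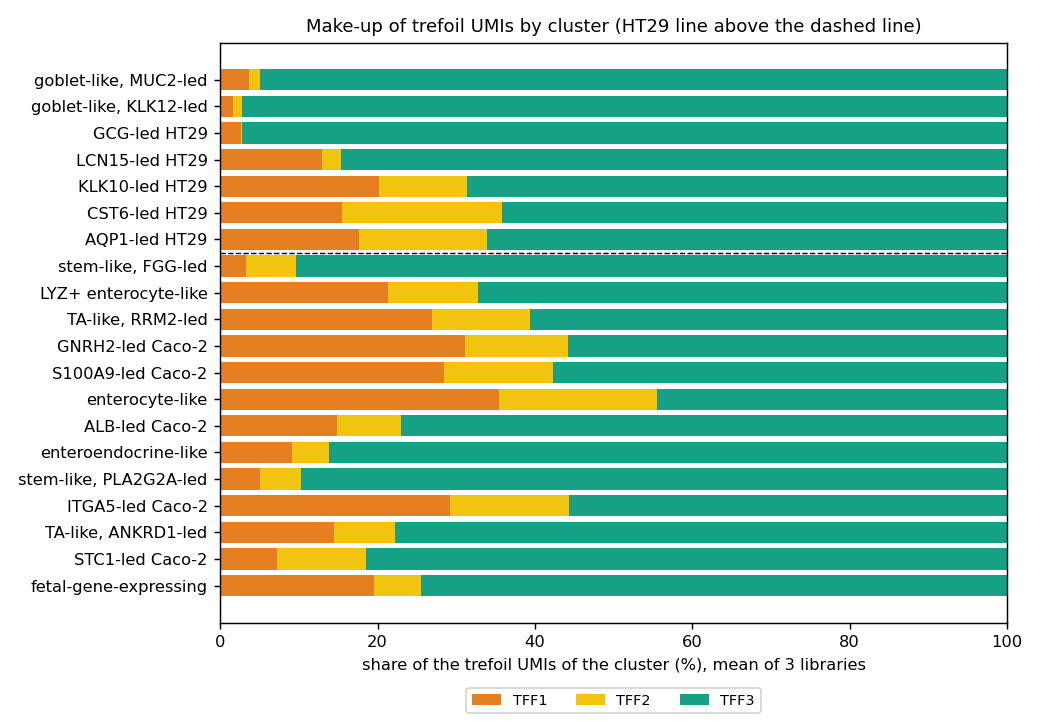
Make-up of the trefoil UMIs of each cluster, as the share of TFF1, TFF2 and TFF3 in percent, mean of 3 libraries; the NEAT1-led HT29 cluster, with very few trefoil UMIs, is left out. TFF3 made up 92.9% to 99.7% of the trefoil UMIs of goblet-like cells over the libraries and 42.4% to 46.3% of those of enterocyte-like cells.

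As a family, the trefoil UMIs were of unlike make-up in the lines. TFF3 made up 59.2% to 63.8% of the trefoil UMIs of Caco-2-line cells and 86.6% to 89.8% of those of HT29-line cells. Enterocyte-like cells had a more even make-up than their line, with 33.6% to 37.7% TFF1, 17.4% to 23.9% TFF2 and 42.4% to 46.3% TFF3. Goblet-like MUC2-led cells had 92.9% to 97.9% TFF3 and FGG-led stem-like cells 88.4% to 92.6%. How well the assay captures each of the 3 RNAs was not tested, so these shares compare clusters rather than genes.

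TFF1 and TFF2 were found in the same cells more often than their single shares would give. In thinned Caco-2-line cells the number with both was 1.73 to 2.08 times the product of the shares, and in HT29-line cells 3.03 to 4.36 times. The HT29-line ratios rest on 16, 14 and 8 cells with both in control 1, control 2 and the LPS library. For TFF1 and TFF3 the ratio was 1.24 to 1.35 in Caco-2-line and 1.85 to 2.31 in HT29-line cells, and for TFF2 and TFF3 1.30 to 1.54 and 1.40 to 1.87. Mixing of clusters with unlike levels gives ratios above 1 as well. The ratio cannot pass 1 divided by the larger share, so its size is not compared between groups or pairs with unlike shares. Within enterocyte-like cells the TFF1 and TFF2 ratio was 1.30 to 1.45, with a TFF1 UMI in 77.7% to 82.9% of cells with a TFF2 UMI and in 45.2% to 46.7% of those without.

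The likeness of other genes was taken over the 16 clusters with at least 20 cells in each library, as Pearson's r of log2(CPM + 1) among 11466 genes. The clusters share libraries and differ in depth, so these values are descriptions. For TFF1 the 5 genes most like it were TFF2 (r = 0.89), NCBP2-AS2 (0.87), NUDT16 (0.86), GUCA2A (0.85), which encodes guanylin, and ANG (0.84), which encodes angiogenin. For TFF2 they were CREB3L3 (0.92), a liver and gut transcription factor, GDPD2 (0.91), the kallikrein KLK1 (0.91), TMEM256 (0.89) and TFF1 (0.89). For TFF3 they were COLCA1 (0.88), GUCA2B (0.82), which encodes uroguanylin, the Notch ligand DLL4 (0.81), C17orf100 (0.79) and PCYOX1L (0.79). Over the 11 Caco-2-line clusters alone the genes like TFF1 and TFF2 stayed at 0.76 to 0.91, whereas those like TFF3 ran from -0.44 to 0.10. The r of TFF1 with TFF3 was 0.68 over all 16 clusters and 0.21 over the 11, and that of TFF2 with TFF3 0.60 and 0.49.

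The genes that go with trefoil peptides in mucus differed between the lines in both directions. Of 13 mucin genes 12 were tested between the lines, and 8 were called higher in HT29-line cells and 3 lower, where 34.8% and 37.6% of all tested genes were called higher and lower. MUC2 stood at 34.7, 21.1 and 31.4 CPM in HT29-line cells and at 0.352 to 1.497 CPM in Caco-2-line cells, and MUC5AC, a gastric mucin, at 79.8 to 128 CPM against 2.31 to 2.87 CPM (log2 fold change 5.21, edgeR adjusted p = 9.47e-24). MUC17, a membrane mucin of enterocytes, was lower, at 2.69 to 2.78 CPM against 18.0 to 25.7 CPM. MUC6, the mucin that accompanies TFF2 in gastric glands, had 2 UMIs in all. The median log2 difference of the mucins tested was 3.01, and that of all genes tested -0.06.

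Of 15 goblet products 12 were tested, with 6 higher and 3 lower in the HT29 line, a share near the 72.4% of all genes called, and 8 called with DESeq2. FCGBP was higher by 4.44 on the log2 scale (edgeR adjusted p = 1.20e-20), whereas KLK1, ZG16 and GUCA2A were lower, with log2 fold changes of -2.17, -3.63 and -2.13. AGR2, a disulfide isomerase needed to fold mucins, stood at 975 to 1133 CPM in Caco-2-line and 1019 to 1217 CPM in HT29-line cells and was not called. Between goblet-like and other HT29-line cells 9 of 11 tested were called, all of them higher, where 10.3% of all 10369 genes tested were called. The 9 included AGR2, by 1.89 on the log2 scale (edgeR adjusted p = 7.20e-18), and CLCA1 had no UMI in any library. Of the 10 mucins tested there 3 were higher (MUC2, MUC5AC and MUC5B) and 2 lower (MUC13 and MUC15). FCGBP, GUCA2B, ZG16, MUC2 and MUC5AC are among the markers that named the goblet-like class. Their levels there were therefore partly set in advance, and their calls are no separate evidence. Only the trefoil genes were left out of clustering, so any other gene, AGR2 included, could shape the goblet-like class. The p-values of all listed genes in this comparison are therefore too small.

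All 16 regulators tested of 21 were called between the lines by edgeR, 10 higher and 6 lower in HT29-line cells, where 72.4% of all genes were called, and 14 with DESeq2. SPDEF, which drives goblet cell maturation, stood at 62.5 to 67.1 CPM in HT29-line and 0.938 to 2.22 CPM in Caco-2-line cells. CDX2 and HNF4A, transcription factors of the intestinal epithelium, were lower in HT29-line cells, with log2 fold changes of -3.06 and -2.04. CDX1 went the other way with 5.37, at 6.18 to 9.03 CPM in HT29-line and 0.156 to 0.199 CPM in Caco-2-line cells. In goblet-like cells 6 of 15 were higher than in other HT29-line cells and HIF1A was lower, where 10.3% of all genes were called. SPDEF and CREB3L1 are among the markers that named the goblet-like class, so their calls were partly set in advance. The other regulators were not left out of clustering either, and ATOH1 is among the leading genes of the MUC2-led cluster. Their p-values are therefore too small as well. The 6 higher regulators were ATOH1 (log2 fold change 5.51, edgeR adjusted p = 2.72e-08), which sets the secretory fate, SPDEF (2.14), CREB3L1 (2.08), FOXA2 (1.61), FOXA3 (1.84) and XBP1 (0.73). ESR1, the estrogen receptor that drives TFF1 in breast cells, had no UMI.

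Of 12 proposed partners and receptors 7 were tested between the lines, with 2 higher and 5 lower in HT29-line cells, beside 34.8% and 37.6% of all genes. CXCR4, a chemokine receptor proposed to answer TFF2, stood at 5.79 to 16.4 CPM in HT29-line and 0.479 to 0.664 CPM in Caco-2-line cells. ITGB1, an integrin chain, was higher in HT29-line cells with a log2 fold change of 0.61, and F2RL1 and EGFR were lower with -1.34 and -0.50. GKN2, the gastrokine that binds TFF1, had no UMI, GKN1 had 1 and DMBT1 10 in all. In goblet-like cells none of the 4 tested was called by edgeR, none with DESeq2, and 2 had an unadjusted edgeR p under 0.05, as had 2291 of all 10369 genes. Of 8 neighbours on chromosome 21 5 were tested, and 4 were higher in HT29-line cells (ABCG1, RSPH1, SLC37A1 and PDE9A), beside 34.8% of all genes, ABCG1 by 3.61 on the log2 scale, while TMPRSS3, next to TFF1, had 37 UMIs in all. Between goblet-like and other HT29-line cells 1 of 5 was called, beside 10.3% of all genes. It was ABCG1, which was lower with a log2 fold change of -1.25 and was not called with DESeq2.

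The LPS library was compared with the controls. The LPS library had the lowest TFF2 and TFF3 of the 3 in both lines, yet no trefoil gene passed the test. For TFF2 control 2 lay close to the LPS library in both lines. For TFF3 control 2 lay nearer to the LPS library than to the other control in Caco-2-line cells. In HT29-line cells it lay nearer to the other control. In Caco-2-line cells TFF2 stood at 139 CPM with LPS and at 332 and 156 CPM in the controls, and TFF3 at 725 CPM against 1137 and 862 CPM. TFF1, at 348 CPM, lay between the controls at 453 and 334 CPM. In HT29-line cells all 3 were lowest with LPS, TFF1 at 94.5 CPM against 149 and 113 CPM, TFF2 at 29.5 against 70.2 and 35.7 CPM and TFF3 at 1089 against 1419 and 1276 CPM.

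**Figure D5:**
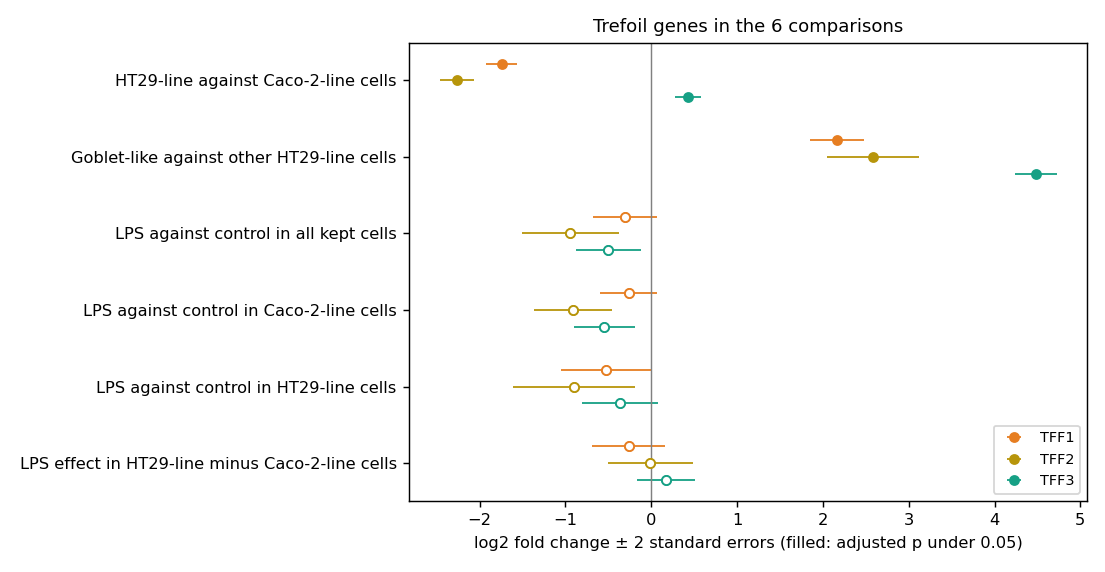
Log2 fold change of TFF1, TFF2 and TFF3 in the 6 comparisons of the edgeR fits (x axis), with lines of 2 standard errors to each side and filled points where the adjusted p is under 0.05. All points of the line and goblet-like comparisons are filled, and none of the LPS comparisons is.

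Over all kept cells the log2 difference between LPS and control was -0.31 (SE 0.19) for TFF1, -0.94 (SE 0.28) for TFF2 and -0.50 (SE 0.19) for TFF3, with edgeR adjusted p of 0.956, 0.862 and 0.956. In this comparison 0.105% of the 16135 genes were called by edgeR, 17 in number, against 6 with DESeq2. At an unadjusted edgeR p under 0.05 there were 751, TFF2 and TFF3 among them. In Caco-2-line cells, where 0.148% of 15552 genes were called, the differences were -0.26 (SE 0.17), -0.91 (SE 0.23) and -0.55 (SE 0.18), with edgeR adjusted p of 0.773, 0.149 and 0.469. In HT29-line cells, where 0.0900% of 12220 genes were called, they were -0.52 (SE 0.26), -0.90 (SE 0.36) and -0.36 (SE 0.22), each with an edgeR adjusted p of 0.999. The fits have 1 residual degree of freedom and take the lone LPS library to vary as the controls do.

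The TFF2 difference rested on control 1. Without that library the log2 difference over all kept cells was -0.24, in Caco-2-line cells -0.23 and in HT29-line cells -0.31, and without control 2 it was -1.42, -1.38 and -1.32, values with no test since 1 library stood against 1. The adjusted p of TFF2 in Caco-2-line cells ran from 6.92e-06 to 1.00 over the other alternatives while its log2 difference stayed between -0.93 and -0.86. Control 1 was the deepest library, and whether depth, the well or another feature of it set its TFF2 level was not tested.

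The LPS difference was then set against itself in the lines. The log2 difference in HT29-line cells minus that in Caco-2-line cells was -0.26 for TFF1 (2 SE to each side reach from -0.69 to 0.16), -0.01 for TFF2 (-0.50 to 0.48) and 0.17 for TFF3 (-0.16 to 0.51). None passed edgeR's test of this term, each with an adjusted p of 1, where 0.0796% of 15066 genes were called (12 genes, none with DESeq2), and 514 genes but no trefoil gene had an unadjusted p under 0.05. A p that misses the threshold does not show that the lines responded alike. Over the 21 clusters TFF3 was below both controls in 13, beyond counting error in 9, and above both in 3, none beyond counting error. TFF2 was below both in 12 clusters, 4 of them beyond counting error, and above in 1. TFF1 was below in 7, 2 beyond counting error, and above in 4, 1 beyond it. The clusters share the same 3 libraries, so these counts are a description. Counting error also takes each UMI as independent, though UMIs of a gene can lie in few cells. In the MUC2-led goblet-like cluster, among the 4 for TFF2, 1 cell held 76 of the 85 TFF2 UMIs of control 1.

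Beside the trefoil genes, none of the mucins, goblet products, regulators, partners or neighbours was called by edgeR, nor by DESeq2, in any LPS comparison. In these comparisons edgeR called only 0.0796% to 0.148% of all genes tested, so lists of this size would seldom hold a call. In Caco-2-line cells 12 mucins, 11 goblet products, 17 regulators, 8 partners and 6 neighbours were tested. Their median log2 differences were 0.11, 0.02, 0.03, -0.01 and 0.15, against 0.01 for all genes tested and -0.55 for the 3 trefoil genes. The last is the value of TFF3, which ran from -0.76 to -0.31 when 1 control was left out. AGR2 in Caco-2-line cells stood at 1051 CPM with LPS and at 975 and 1133 CPM in the controls, and MUC2 in HT29-line cells at 31.4 CPM with LPS and at 34.7 and 21.1 CPM in the controls, so both lay between them.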

How the data were processed

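Single-cell RNA was measured in 2 control libraries and 1 LPS library. The UMI counts per gene and barcode, as deposited by the authors, come from reads that they mapped to GRCh38 with Cell Ranger, without normalization, and hold barcodes of at least 500 UMIs, before the cell minimums of the study. The study's minimums were applied (2250 UMIs and 770 genes in control 1, 1500 and 700 in control 2 and the LPS library, for which none is stated), with at most 20% mitochondrial UMIs. Scrublet marked 0, 0 and 1 cells by its own threshold, so in each library the 6% of cells scoring highest were left out. SCTransform (sctransform 0.4.2) and anchor integration (Seurat 5.3.0) on 3000 features without the trefoil genes were followed by Leiden clustering (leidenalg 0.10.2) on 50 components at a resolution of 0.5, with secretory clusters split at 0.4 and HT29 clusters at 0.3. Names rest on markers that the study made from the controls. Each cluster was placed in a line by the log2 ratio of its UMIs on the study's HT29 (398 genes) and Caco-2 (757 genes) lists. The cut fell at -1.49, between the NEAT1-led HT29 cluster (-1.25) and the LYZ+ enterocyte-like cluster (-1.75). Counts were summed per group and library and tested with edgeR 4.0.16 (quasi-likelihood, TMM, Benjamini-Hochberg adjustment over all genes tested), with the library as a block where groups of 1 library were compared, since both sums come from the same well. DESeq2 1.42.0 was the other tool. All 3 trefoil genes passed the filter on low counts in each comparison. The scripts were tested on simulated data. Coordinates are from GENCODE release 44, whose gene IDs match those of the files. The named genes are the trefoil genes, the listed genes of 5 lists (mucins, goblet products, regulators, partners and receptors, neighbours) and the 5 genes most like each trefoil gene over clusters. The members, lists and markers were chosen with earlier results of these data known.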

Additional observations from a re-analysis of the deposited data

Results flagged for a closer look

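In enteroendocrine-like cells TFF1 stood at 175 CPM in the LPS library and at 40.4 and 69.4 CPM in control 1 and control 2, above both beyond the exact Poisson 95% intervals, while in the ITGA5-led Caco-2 and MUC2-led goblet-like clusters it lay below both controls. This opposite direction was not tested. The LPS value rests on 24 UMIs in 37 cells, of which 8 held a TFF1 UMI and 1 held 7.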

How the results depend on the processing

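Over all alternatives the line comparison kept the direction and call of TFF1 and TFF2, and that of TFF3 kept both except without goblet-like cells (-0.65). Without the library as a replicate block the line differences were -1.73, -2.27 and 0.41 for TFF1, TFF2 and TFF3 and the goblet-like ones 2.202, 2.72 and 4.51, and no call changed. No paired analysis was possible because LPS and control share only the number 1. Goblet-like TFF2 lost its call with DESeq2 (2.03) and ran from 1.85 to 3.07 when 1 library was left out. Without 1 control the LPS differences over all kept cells ran from -0.55 to -0.0201 for TFF1, from -1.42 to -0.24 for TFF2 and from -0.69 to -0.29 for TFF3. In Caco-2-line cells they ran from -0.50 to 0.00051, from -1.38 to -0.23 and from -0.76 to -0.31, and for TFF2 in HT29-line cells from -1.32 to -0.31. TFF2 passed edgeR's test over all kept cells with no filter on low counts (-0.96, adjusted p = 1.30e-05). In Caco-2-line cells it passed edgeR's test with no filter (-0.93, adjusted p = 8.59e-06), log normalization without integration (-0.90, adjusted p = 2.66e-05), a Leiden resolution of 0.8 (-0.91, adjusted p = 6.92e-06) and line by cell (-0.92, adjusted p = 0.00309), and in HT29-line cells with log normalization (-1.11, edgeR adjusted p = 0.0227). These calls go with the spread that edgeR shares between genes: its prior degrees of freedom were infinite in each of them except line by cell (101.5), against 33.85 in the reported fit of Caco-2-line cells, where the log2 difference stayed between -0.93 and -0.86, and DESeq2 gave an adjusted p of 1.00 there. They are therefore no firmer evidence than the reported test. The TFF2 difference between the lines in the LPS effect turned to 0.25 with no doublets removed, 0.45 with the minimums of control 1 in every library and 0.0203 at a Leiden resolution of 0.8, ran from -0.0752 to 0.0429 without 1 control, and that of TFF3 turned to -0.0130 with line by cell, none past the test. The genes called went from 1066 to 566 with DESeq2 for goblet-like cells, where leaving out 1 library gave 501 to 616. Over the alternatives they ran from 4 to 46 over all kept cells (17 as reported), from 1 to 54 in Caco-2-line cells (23), from 0 to 43 in HT29-line cells (11) and from 0 to 43 for the difference between the lines (12). The LPS comparison is limited by its single LPS library.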
